A study of Mus musculus with 33 samples.

Results

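The Nr4a orphan nuclear receptors are the 3 genes Nr4a1 (NUR77), Nr4a2 (NURR1) and Nr4a3 (NOR1), taken by name from the 23420 gene symbols counted in mouse quadriceps muscle. All 3 passed the filter on low counts that left 13955 genes for testing. The 33 libraries came from adult male C57BL6 mice that were Actn3 null (KO, 16 libraries) or wild type (WT, 17 libraries). Actn3 encodes alpha-actinin-3, a Z-disc protein of fast muscle fibres. Mice had received 1 intraperitoneal injection, 20 mg/kg of the glucocorticoid dexamethasone sodium phosphate (dex) or saline, and the quadriceps was collected 24 h or 3 h afterwards. The 4 dex groups (KO 24 h, WT 24 h, KO 3 h and WT 3 h) held 5 libraries each. The saline groups held 3 libraries in KO at 24 h, 4 in WT at 24 h, 3 in KO at 3 h and 3 in WT at 3 h.

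NR4A proteins are transcription factors of the nuclear receptor family for which no classical hormone ligand is needed, so their activity follows largely from how much of them is made. Their genes are immediate early genes, switched on within minutes to hours by cyclic AMP, calcium, growth factors and stress, with CREB bound to cAMP response elements as a well-known activator. In skeletal muscle they are known to respond to beta-adrenergic stimulation and exercise, and NUR77 and NOR1 act on genes of glucose and fat use. NUR77 and NURR1 can pair with the retinoid X receptor, whereas NOR1 is not known to do so. Glucocorticoid receptor and NUR77 are known, from work in pituitary cells, to oppose each other on shared target genes.

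The promoter windows are shown because all 3 genes moved with time after a saline injection and are textbook targets of the same factor, CREB. Whether CREB had a part in that movement was not tested. Each window is the 250 bases before the RefSeq transcription start (GRCm38.p6), written 5′ to 3′ along the gene. Capitals mark TGACG, the core of the cAMP response element, or CGTCA, the same letters on the opposite strand. The motif was chosen with these sequences known. The windows lie at chr15:101266596-101266845 on the + strand for Nr4a1, chr2:57124004-57124253 on the − strand for Nr4a2 and chr4:48045055-48045304 on the + strand for Nr4a3.
Nr4a1: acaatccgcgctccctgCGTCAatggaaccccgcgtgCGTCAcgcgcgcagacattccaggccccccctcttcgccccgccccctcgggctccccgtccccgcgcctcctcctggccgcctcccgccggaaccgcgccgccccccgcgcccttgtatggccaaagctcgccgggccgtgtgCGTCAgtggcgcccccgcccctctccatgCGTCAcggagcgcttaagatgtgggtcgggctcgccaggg
Nr4a2: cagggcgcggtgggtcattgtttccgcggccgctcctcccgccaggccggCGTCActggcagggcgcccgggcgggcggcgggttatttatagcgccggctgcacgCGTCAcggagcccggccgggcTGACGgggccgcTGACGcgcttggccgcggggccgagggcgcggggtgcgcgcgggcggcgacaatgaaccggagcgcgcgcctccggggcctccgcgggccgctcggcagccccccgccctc
Nr4a3: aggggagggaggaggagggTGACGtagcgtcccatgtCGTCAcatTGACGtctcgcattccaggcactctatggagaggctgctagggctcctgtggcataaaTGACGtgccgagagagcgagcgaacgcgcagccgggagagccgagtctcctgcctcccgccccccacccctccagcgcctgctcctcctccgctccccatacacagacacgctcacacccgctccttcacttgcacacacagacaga

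Each window held 4 matches to TGACG, counting both strands. At least 1 match was present in 17.8% of the 32841 mouse promoter windows of the same length, and 4 or more in 0.137% of them. Those windows were not matched to these genes for base composition. In Nr4a1 all 4 matches were on the opposite strand, and their first printed bases lay 233, 213, 69 and 40 bases before the start. In Nr4a2 they lay at 200 and 144 bases on the opposite strand and at 123 and 111 bases on the gene's strand. In Nr4a3 they lay at 231, 205 and 147 bases on the gene's strand and at 213 bases on the opposite strand. Further motifs were searched on both strands. None of the windows held the full element TGACGTCA (1.55% of all windows), which contains TGACG on both strands, the palindromic glucocorticoid response element, AGAACA and TGTTCT set 3 bases apart (0.00913%), or the NR4A monomer site AAAGGTCA (1.34%). The TATA box core TATAAA occurred once, in Nr4a2 on the opposite strand, 164 bases before the start, and in 12.4% of all windows. A match describes these letters and does not show that a factor binds.

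In the GENCODE vM21 annotation of GRCm38, which is the submitters' mm10 assembly, Nr4a1 spans 15:101254269-101274795, Nr4a2 spans 2:57106830-57124003 and Nr4a3 spans 4:48045153-48086447. All 3 are protein-coding, and none of their exon bases is shared with another gene. The RefSeq window of Nr4a1 lies inside the GENCODE span, which begins at a more distal start, and that of Nr4a3 overlaps the first bases of its span.

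The libraries held 19.66 to 42.76 M gene counts, with a median of 29.94 M. Actn3 itself checked the genotype labels, with 31.9 to 84.1 CPM in KO libraries and 6959 to 9704 CPM in WT libraries. CPM is the number of reads of a gene per 1 M reads of the library, here after TMM scaling. The muscle label was checked with 12 myofibre markers, which summed to between 1.37e+05 and 2.15e+05 CPM per library. Whether every library stands for its own animal is not stated in the labels, and the p-values therefore measure the spread between these libraries. In bulk muscle, fewer cells of a type and less RNA per cell cannot be told apart.

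The 3 genes differed widely in level. Per exon length, Nr4a1 averaged 89.3 RPKM over all libraries, Nr4a3 2.46 RPKM and Nr4a2 0.398 RPKM. Nr4a1 rested on 1522 to 16559 counts per library and ranged 6.79-fold, from 71.6 to 486 CPM. Nr4a2 rested on only 18 to 111 counts and ranged 5.82-fold, from 0.601 to 3.5 CPM, so each of its values carries a large counting error. Nr4a3 rested on 8 to 2258 counts and ranged 236-fold, from 0.365 to 86.1 CPM.

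**Figure D1:**
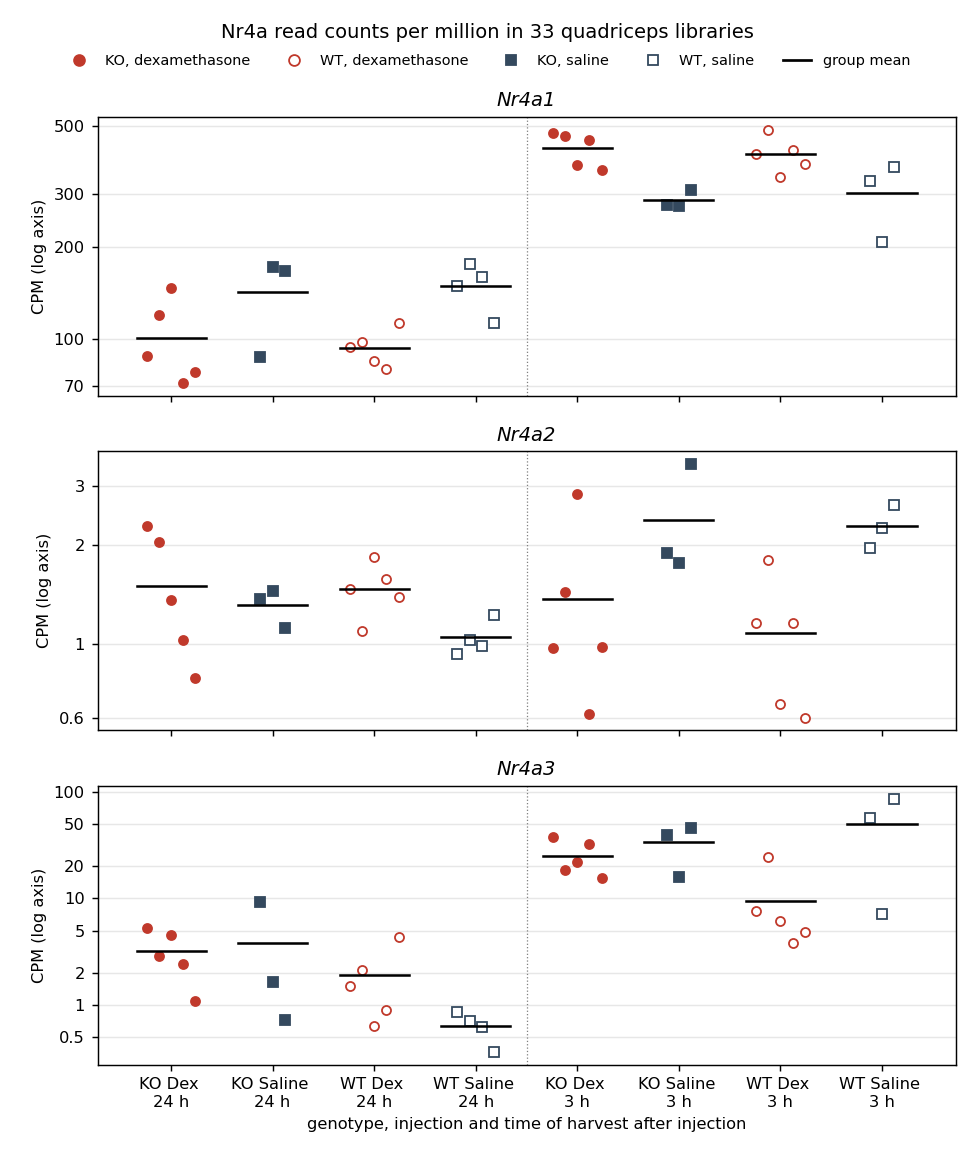
TMM-scaled CPM (log axis) of Nr4a1, Nr4a2 and Nr4a3 in each of the 33 libraries by group, with 24 h left of 3 h and dex left of saline. Points are libraries and bars are group means. Nr4a1 was above 200 CPM in every 3 h library and below 180 CPM in every 24 h library, Nr4a2 was highest in the saline 3 h groups, and Nr4a3 spread most.

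The series holds saline groups at both times, so the first question was how the genes stood at 24 h against 3 h without dexamethasone. All 3 were lower at 24 h. Over both genotypes the fitted fall was 2.01-fold for Nr4a1, 1.99-fold for Nr4a2 and 25.8-fold for Nr4a3. Of all genes tested, 1.38% were called lower in this comparison and 2.47% changed either way (344 of 13955, edgeR quasi-likelihood test, adjusted p under 0.05). Nr4a3 had the largest fall of all genes tested and the second smallest p. The labels give no clock time, so time since the injection and time of day at harvest cannot be told apart. Clock genes went both ways in this comparison. Nr1d1, which encodes REV-ERB alpha, had a log2 fold change of −0.93 and Arntl of −0.98, while Per2 rose by 0.535. Nr1d2 and Per1 were not called. These clock genes are named here after their values were seen.

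Nr4a1, the best expressed member and the one most often studied in muscle, had 87.5, 172 and 167 CPM in KO saline muscle at 24 h, against 276, 273 and 308 CPM at 3 h. In WT saline muscle it had 149, 176, 160 and 113 CPM at 24 h, against 329, 208 and 367 CPM at 3 h. Every 24 h library lay below every 3 h library. Over both genotypes its log2 fold change was −1.01 ± 0.16 (SE, adjusted p = 0.000499). It was −1.01 ± 0.23 in KO (adjusted p = 0.118) and −1.01 ± 0.21 in WT (adjusted p = 0.0197), where 0.0358% and 0.588% of genes were called either way. The KO fall passed the threshold in limma-voom with sample weights (adjusted p = 0.00769), in DESeq2 (0.0125) and without the 5 libraries whose names start with ML1716 (0.0349), and its adjusted p ran up to 0.491 in the others. The WT fall lost its call when WT saline 3 h library 1 (adjusted p = 0.0814), WT saline 3 h library 3 (0.185) or WT saline 24 h library 4 (0.0826) was left out, and with the compared groups alone (0.0575). It ran from 0.00173 to 0.185 in all.

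Nr4a2, best known for its part in dopamine neurons and weakly expressed here, had 1.37, 1.45 and 1.12 CPM in KO saline muscle at 24 h, against 1.89, 1.76 and 3.5 CPM at 3 h. In WT saline muscle it had 0.935, 1.03, 0.987 and 1.23 CPM at 24 h, against 1.96, 2.24 and 2.63 CPM at 3 h. As for Nr4a1, the 7 libraries at 24 h all lay below the 6 at 3 h. Over both genotypes the log2 fold change was −0.99 ± 0.28 (adjusted p = 0.0463), close to the threshold. Leaving out any one of the 13 saline libraries took the adjusted p above 0.05, to between 0.0522 and 0.149, with log2 fold changes from −1.08 to −0.80. Within KO (−0.86 ± 0.40, adjusted p = 0.586) and within WT (−1.13 ± 0.38, adjusted p = 0.159) the difference did not pass the threshold.

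Nr4a3, the member with the widest swings, had 9.2, 1.66 and 0.733 CPM in KO saline muscle at 24 h, against 38.9, 15.9 and 46.2 CPM at 3 h. In WT saline muscle it had 0.863, 0.709, 0.631 and 0.365 CPM at 24 h, against 56.4, 7.22 and 86.1 CPM at 3 h. The times did not overlap within either genotype. Across genotypes they did, because KO saline 24 h library 1 was above WT saline 3 h library 2. The log2 fold change was −4.69 ± 0.57 over both genotypes (95% interval −5.80 to −3.57, adjusted p = 1.41e-05). It was −6.25 ± 0.82 in WT (adjusted p = 0.000172) and −3.13 ± 0.76 in KO (adjusted p = 0.145), where it was nevertheless the largest fall of all genes tested.

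Both of these libraries stood apart from the others of their group for Nr4a3, so the comparison was repeated without them, a choice made after their values were seen. The log2 fold change over both genotypes was then −5.80 ± 0.56 (adjusted p = 2.39e-07), and in KO it was −4.83 ± 0.81 (adjusted p = 0.0237). Leaving out the lowest WT value at 3 h and the highest KO value at 24 h had to widen the fall. This refit is therefore no support for the fall or for a call in KO. Over the other settings and left-out libraries the adjusted p ran from 1.21e-12 to 0.000727 for both genotypes and up to 0.452 in KO. KO saline 24 h library 1, the highest of its group for Nr4a3, was the lowest for Nr4a1. WT saline 3 h library 2 was the lowest of its group for both genes.

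An exact permutation test of the time labels within each genotype gave the same two-sided p for all 3 genes, 0.00143. This is the smallest that the 700 arrangements of the 13 saline libraries can give, so it does not tell the 3 genes apart. It was not adjusted over genes, and the members were chosen with earlier results of these data known. The difference between genotypes in the saline fall was 3.12 ± 1.13 on the log2 scale for Nr4a3 (KO minus WT, unadjusted p = 0.00924, adjusted p = 1), 0.27 ± 0.55 for Nr4a2 and 0.00 ± 0.32 for Nr4a1. Without KO saline 24 h library 1 the Nr4a3 difference was 1.42, and it ran from 1.42 to 3.63 when 1 library at a time was left out. No gene was called in that interaction by edgeR.

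**Figure D2:**
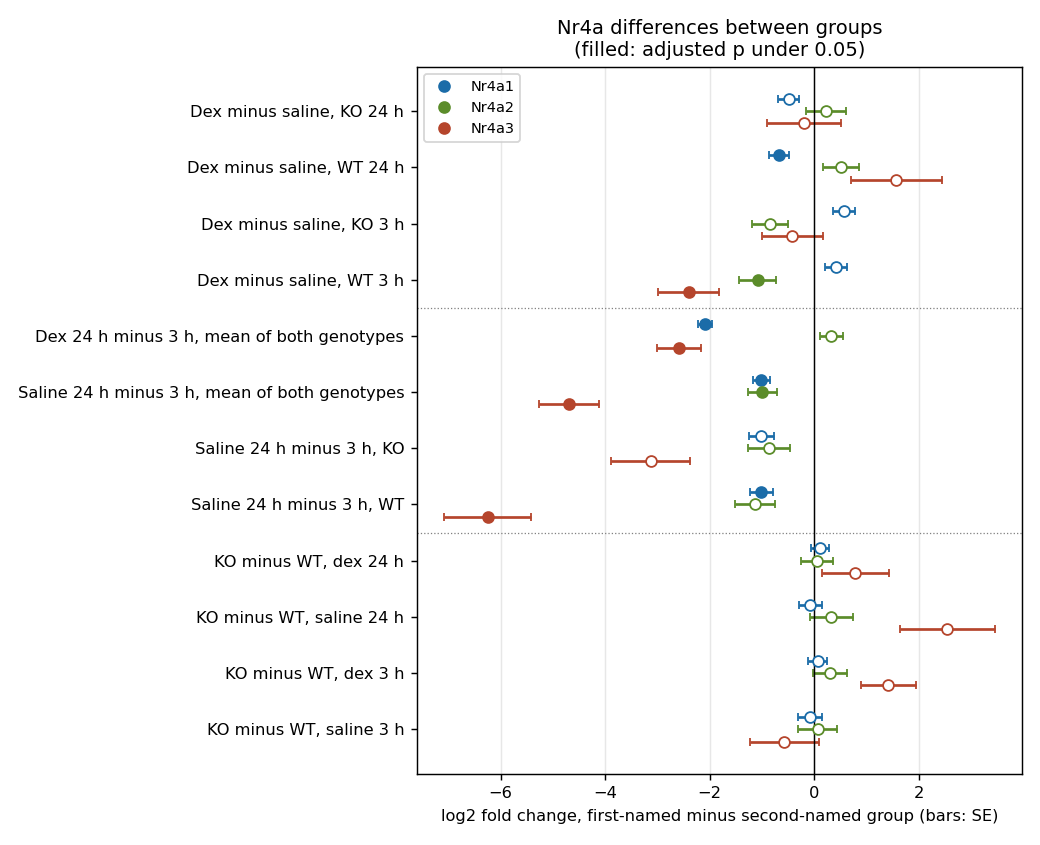
Log2 fold changes of Nr4a1, Nr4a2 and Nr4a3 (x axis, first-named minus second-named group, bars are SE) in 12 comparisons from the edgeR fit. Filled points passed an adjusted p of 0.05. The saline 24 h minus 3 h values lie left of 0 for all 3 genes, at −4.69 for Nr4a3, and no KO minus WT point is filled.

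Other immediate early and cAMP-responsive genes were set beside the family in a list of 26. In saline muscle at 24 h against 3 h, 1.38% of all genes tested were called lower and 2.47% either way. Of the 26 listed genes, 4 fell, 1 rose and 21 did not pass the test. The median log2 fold change of the 26 was −0.33, against 0.005 over all genes tested. The 4 with the smallest p all fell. Irs2, the insulin receptor substrate, fell by 0.82 ± 0.16 on the log2 scale (adjusted p = 0.00577). Ppargc1a, which encodes the coactivator PGC-1alpha, fell by 1.04 ± 0.23 (adjusted p = 0.0124). Sik1, a salt-inducible kinase, fell by 0.73 ± 0.17 (adjusted p = 0.0149), and Fosb, a subunit of AP-1, fell by 1.57 ± 0.40 (adjusted p = 0.03). The gene that rose was Ier3, an early response gene named here after its value was seen, at 0.63.

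Ppargc1a is a known partner in exercise and beta-adrenergic responses, and its values ran beside those of Nr4a3. It had 97.9, 58.8 and 62.5 CPM in KO saline muscle at 24 h, against 133, 69.8 and 150 CPM at 3 h. In WT saline muscle it had 59.7, 66.3, 65.2 and 56.5 CPM at 24 h, against 123, 78 and 288 CPM at 3 h. The lowest and highest library of each of these groups at 3 h were the same for Ppargc1a as for Nr4a3. At 24 h the highest library of KO and the lowest of WT were the same, while the lowest of KO and the highest of WT differed. Ppargc1a also had the highest Pearson r with Nr4a3 over the 33 libraries (0.82), so these matches are no separate evidence.

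**Figure D3:**
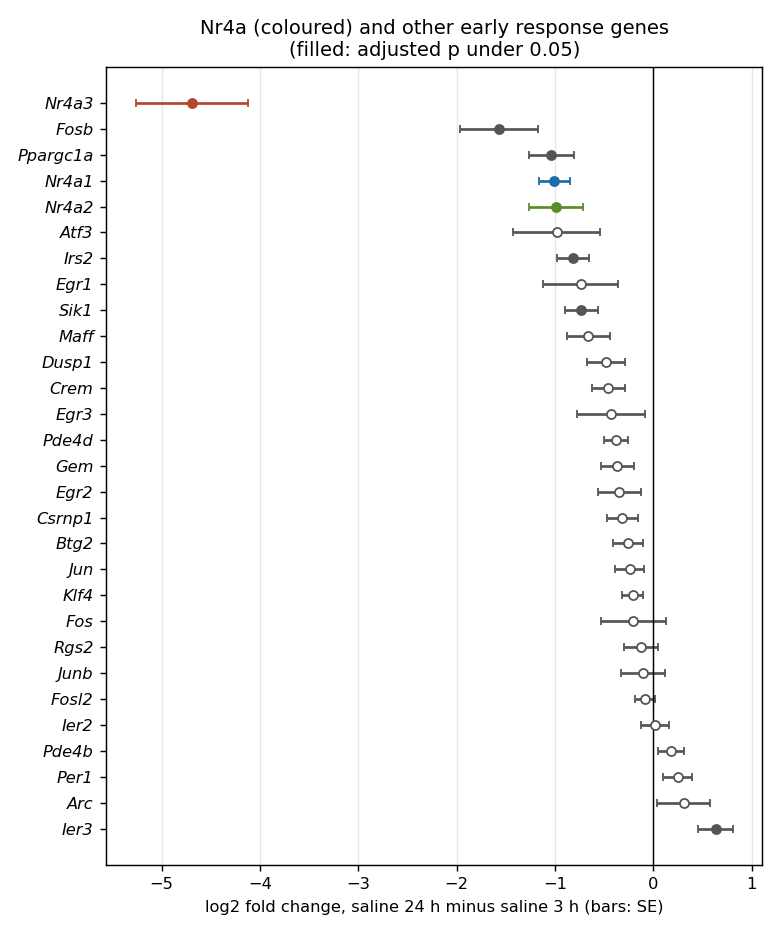
Log2 fold changes between saline 24 h and saline 3 h (x axis, 24 h minus 3 h, bars are SE) of the 3 Nr4a genes and 26 other early response genes, ordered by value. Filled points passed an adjusted p of 0.05. Nr4a3 lies at −4.69, beyond Fosb at −1.57, and Nr4a1 and Nr4a2 lie near Ppargc1a at −1.04.

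Of 32 genes that carry the cAMP and calcium signal 1 fell, a share near the 2.47% of all genes called in this comparison. It was Hdac4, which encodes a calcium-regulated deacetylase, at −0.54 ± 0.12 on the log2 scale (adjusted p = 0.0106). Of 14 genes for NR4A partners and corepressors 12 were tested and none was called, with a median log2 fold change of −0.10. Ncor1, a nuclear receptor corepressor, had the smallest p of these, at −0.21 ± 0.10 (adjusted p = 0.272). Of 17 muscle metabolic genes linked to NR4A receptors none was called, with a median of 0.0038. Lpin1, a phosphatidate phosphatase, came nearest, at −0.40 ± 0.12 (adjusted p = 0.0709). These 0 calls are by edgeR over all genes tested.

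Other nuclear receptors were read beside the 1.38% of all genes called lower in this comparison. Of 46 other nuclear receptor genes in the files 33 were tested, and 2 fell while 31 did not pass, with a median log2 fold change of −0.047. They were Nr1d1, by 0.93 ± 0.18 on the log2 scale (adjusted p = 0.00364), and Nr3c1, the glucocorticoid receptor, by 0.37 ± 0.09 (adjusted p = 0.0219). By mean RPKM, Nr4a1 was the highest of the 36 tested nuclear receptor genes at both times, with 54.6 RPKM at 24 h and 110 RPKM at 3 h. Nr4a3 ranked 31st at 24 h with 0.354 RPKM and 15th at 3 h with 7.31 RPKM. Nr4a2 ranked 32nd at both times, with 0.31 RPKM at 24 h and 0.622 RPKM at 3 h.

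**Figure D4:**
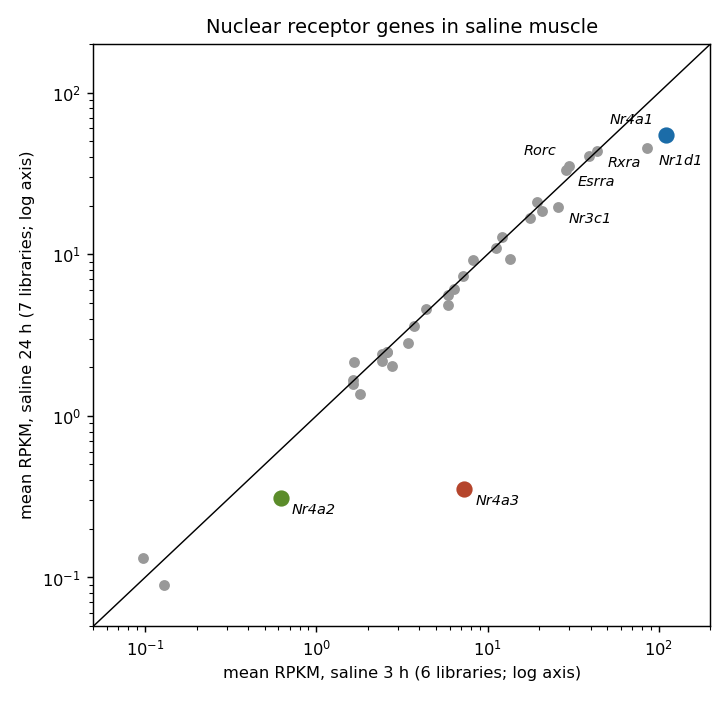
Mean RPKM (reads per exon length and library total, log axes) of 36 nuclear receptor genes in saline muscle at 24 h (y axis, 7 libraries) and at 3 h (x axis, 6 libraries). The line marks equal levels. Nr4a1 is the highest at both times, with 54.6 and 110 RPKM, and Nr4a3 lies farthest below the line, with 0.354 and 7.31 RPKM.

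Markers of other cell types were read in the same comparison, in which 2.47% of all genes were called either way. Among 11 macrophage markers 2 rose, with a median log2 fold change of 0.56, and their summed level was 270 to 579 CPM at 24 h against 232 to 301 CPM at 3 h. Among 10 endothelial markers 1 fell, and the sums were 421 to 499 CPM at 24 h against 467 to 576 CPM at 3 h. Among 12 myofibre markers none was called. No marker of these lists was at 0 in every library. Their part in the fall of the Nr4a genes was not tested.

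After dexamethasone the family did not move as 1 group. At 3 h, over both genotypes, Nr4a1 was higher in dex than in saline muscle while Nr4a2 and Nr4a3 were lower. At 24 h Nr4a1 was lower in dex muscle and neither of the other genes was called. Of all genes tested, 29.1% were called either way at 3 h and 25.5% at 24 h. The dex and saline groups at the same time were compared, so these values share their saline libraries with the saline time comparison. The mean over genotypes was added after the values of each genotype were seen.

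At 3 h Nr4a1 had 474, 462, 371, 451 and 359 CPM in KO dex muscle, against 276, 273 and 308 CPM in KO saline muscle. In WT muscle it had 403, 486, 340, 417 and 375 CPM after dex, against 329, 208 and 367 CPM after saline. The groups did not overlap in KO and overlapped in WT. Dex minus saline, its log2 fold change was 0.57 ± 0.21 in KO (adjusted p = 0.0577, with 9.02% of genes called higher) and 0.42 ± 0.21 in WT (adjusted p = 0.193, with 6.77% called higher). Over both genotypes it was 0.50 ± 0.15 (adjusted p = 0.0105, with 14.8% called higher). That call was lost without WT saline 3 h library 2, at 0.39 (adjusted p = 0.0573).

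At 24 h Nr4a1 had 87.7, 120, 147, 71.6 and 78.1 CPM in KO dex muscle, against 87.5, 172 and 167 CPM in KO saline muscle. In WT muscle it had 93.8, 97.3, 84.5, 79.6 and 113 CPM after dex, against 149, 176, 160 and 113 CPM after saline. In WT all but 1 library of each group were apart, and in KO the groups overlapped. Its log2 fold change was −0.68 ± 0.19 in WT (adjusted p = 0.0141, with 6.98% of genes called lower) and −0.49 ± 0.20 in KO (adjusted p = 0.119, with 5.02% called lower). Over both genotypes it was −0.58 ± 0.14 (adjusted p = 0.00216, with 12.6% called lower). In KO the value passed the threshold without KO saline 24 h library 1, at −0.74 (adjusted p = 0.0211), or without KO dex 24 h library 3, at −0.67 (0.0249). In WT it no longer passed without WT saline 24 h library 2, at −0.58 (0.0642).

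At 3 h Nr4a2 had 0.973, 1.44, 2.85, 0.614 and 0.98 CPM in KO dex muscle, against 1.89, 1.76 and 3.5 CPM in KO saline muscle. In WT muscle it had 1.16, 1.8, 0.66, 1.16 and 0.601 CPM after dex, against 1.96, 2.24 and 2.63 CPM after saline. In WT every dex library lay below every saline library, and in KO the third dex library lay among the saline ones. Nr4a2 differed by −1.08 ± 0.35 on the log2 scale in WT (adjusted p = 0.034, with 8.16% of genes called lower) and −0.84 ± 0.34 in KO (adjusted p = 0.0875, with 8.51% called lower). Over both genotypes it was −0.96 ± 0.25 (adjusted p = 0.00306, with 14.3% called lower). The WT call was lost in 6 of 8 refits that each left out 1 library, with adjusted p up to 0.142. The KO value passed without KO dex 3 h library 3, at −1.25 (adjusted p = 0.00517).

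At 24 h Nr4a2 had 2.28, 2.04, 1.36, 1.03 and 0.793 CPM in KO dex muscle, against 1.37, 1.45 and 1.12 CPM in KO saline muscle. In WT muscle it had 1.47, 1.1, 1.83, 1.58 and 1.39 CPM after dex, against 0.935, 1.03, 0.987 and 1.23 CPM after saline. The groups overlapped in both genotypes. The log2 fold changes, 0.23 ± 0.38 in KO and 0.51 ± 0.35 in WT, did not pass the threshold.

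At 3 h Nr4a3 had 38, 18.5, 21.8, 32.1 and 15.7 CPM in KO dex muscle, against 38.9, 15.9 and 46.2 CPM in KO saline muscle. In WT muscle it had 7.62, 24.7, 6.12, 3.83 and 4.86 CPM after dex, against 56.4, 7.22 and 86.1 CPM after saline. The KO groups covered nearly the same range, and in WT the second saline library lay among the dex ones. The log2 fold change was −2.40 ± 0.59 in WT (adjusted p = 0.0033) and −0.42 ± 0.58 in KO (adjusted p = 0.67). Without WT saline 3 h library 3 the WT value was −1.76 (adjusted p = 0.0739), and over refits that each left out 1 library it ran from −3.15 to −1.76. Over both genotypes it was −1.41 ± 0.41 (adjusted p = 0.00888), and −1.09 (adjusted p = 0.0602) without the same library.

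At 24 h Nr4a3 had 5.28, 2.9, 4.53, 2.45 and 1.1 CPM in KO dex muscle, against 9.2, 1.66 and 0.733 CPM in KO saline muscle. In WT muscle it had 1.5, 2.15, 0.645, 0.909 and 4.39 CPM after dex, against 0.863, 0.709, 0.631 and 0.365 CPM after saline. The groups overlapped in both genotypes. The log2 fold changes were −0.20 ± 0.71 in KO and 1.57 ± 0.87 in WT, and neither passed the threshold. The KO value was 1.51 (adjusted p = 0.337) without KO saline 24 h library 1 and 0.0046 without KO dex 24 h library 5, so its sign turned without either of them.

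The change of the dex effect between times was tested as an interaction over all 8 groups. For Nr4a1 the dex effect was lower at 24 h than at 3 h by 1.08 ± 0.20 on the log2 scale (adjusted p = 0.000119). It was higher at 24 h by 1.32 ± 0.35 for Nr4a2 (adjusted p = 0.00512) and by 2.09 ± 0.70 for Nr4a3 (adjusted p = 0.0249). Of all genes tested 26.5% were called in this interaction. The Nr4a3 value lost its call without WT saline 3 h library 3 (1.77, adjusted p = 0.0624), KO saline 24 h library 3 (1.84, 0.0527) or WT dex 24 h library 5 (1.80, 0.055).

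Within dex muscle, 24 h against 3 h, Nr4a1 averaged 97.3 ± 23.3 CPM at 24 h and 414 ± 52.2 CPM at 3 h (SD, n = 10 each), a log2 fold change of −2.09 ± 0.13 (adjusted p = 1.01e-14). Nr4a3 averaged 2.59 ± 1.65 CPM at 24 h and 17.3 ± 11.9 CPM at 3 h (SD, n = 10 each), at −2.59 ± 0.42 (adjusted p = 5.86e-06). Nr4a2 averaged 1.49 ± 0.46 CPM at 24 h and 1.22 ± 0.69 CPM at 3 h (SD, n = 10 each), at 0.33 ± 0.22 (adjusted p = 0.24). That value passed the threshold in limma-voom with sample weights (0.55, adjusted p = 0.0364) and without KO dex 3 h library 3 (0.54, adjusted p = 0.032). In this comparison 21.2% of all genes tested were called lower and 44.2% changed either way.

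Other early response genes changed in both directions after dexamethasone at 3 h. Of the 26, 10 rose and 2 fell in KO and 8 rose and 4 fell in WT, where 17.5% and 14.9% of all genes were called either way. Maff, a small MAF transcription factor, rose by 3.61 ± 0.27 on the log2 scale in KO (adjusted p = 6.6e-12) and by 3.03 ± 0.26 in WT (adjusted p = 1.75e-10). Csrnp1, a nuclear protein induced by AXIN1, rose by 2.65 ± 0.20 in KO and by 2.23 ± 0.20 in WT. At 24 h 2 rose and 1 fell in KO, and 1 rose and 3 fell in WT, shares near the 10.9% and 13.8% of all genes called.

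Of the 32 signalling genes 2 rose and 4 fell at 3 h in KO, and 2 rose and 3 fell in WT. These shares are near the 17.5% and 14.9% of all genes called. Adrb3, the beta-3 adrenergic receptor, fell by 1.82 ± 0.34 on the log2 scale in KO (adjusted p = 0.000131) and by 3.27 ± 0.33 in WT (adjusted p = 4.71e-09).

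Of the 12 tested partner and corepressor genes, Nrip1, which encodes the corepressor RIP140, was the only one called at 3 h in either genotype. This is no higher than the 17.5% in KO and 14.9% in WT of all genes called. Nrip1 rose by 0.44 ± 0.15 in KO (adjusted p = 0.0399) and by 0.64 ± 0.15 in WT (adjusted p = 0.00265). At 24 h it fell by 0.94 ± 0.15 in KO (adjusted p = 8.43e-05) and by 0.87 ± 0.14 in WT (adjusted p = 6.04e-05). Of the 12 genes at 24 h, 1 rose and 2 fell in KO, and 1 rose and 1 fell in WT. The shares of all genes called at 24 h were 10.9% in KO and 13.8% in WT. Among the 17 metabolic genes 3 rose and none fell at 3 h in each genotype, again near the share of all genes called. Ucp2, a mitochondrial uncoupling protein, had the smallest p, at 1.81 ± 0.16 in KO and 1.88 ± 0.16 in WT. At 24 h 1 rose and 5 fell in KO, and 3 rose and 3 fell in WT, beside 10.9% and 13.8% of all genes. In WT at 24 h Prkag3, a regulatory subunit of AMP-activated kinase in muscle, fell by 1.24 ± 0.17 (adjusted p = 7.85e-06).

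Cell type markers were read in the dex comparisons too. Of all genes, 17.5% in KO and 14.9% in WT were called either way at 3 h, and 10.9% and 13.8% at 24 h. For such short lists, the macrophage counts at 3 h and in KO at 24 h are near these shares. The endothelial sum was 360 to 445 CPM in dex muscle at 3 h against 467 to 576 CPM in saline muscle at 3 h, and of 10 markers 4 fell and 2 rose in KO and 5 fell and 1 rose in WT. The macrophage sum at 3 h was 415 to 683 CPM after dex against 232 to 301 CPM after saline, and of 11 markers 3 rose in KO and 2 rose and 1 fell in WT. At 24 h it was 236 to 291 CPM after dex against 270 to 579 CPM after saline, and 2 of 11 macrophage markers fell in KO and 8 of 11 in WT. Of 6 satellite cell markers 4 fell in KO at 3 h (median log2 fold change −1.2) and 3 in WT (−0.85), and their sum was 12.4 to 16.7 CPM after dex against 29.8 to 36.3 CPM after saline. Of 8 fibroblast markers 3 fell in KO at 24 h (median −0.36) and 4 in WT (−0.61), with sums of 1010 to 1220 CPM after dex against 1390 to 1730 CPM after saline. Their part in the Nr4a values was not tested.

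Between genotypes edgeR called none of the 3 genes in any of the 4 conditions, in which 5.19% of all genes tested were called in dex muscle at 24 h, 3.17% in saline muscle at 24 h, 3% in dex muscle at 3 h and 1.5% in saline muscle at 3 h. For Nr4a3 the log2 fold change, KO minus WT, was 0.79 ± 0.65 in dex muscle at 24 h (adjusted p = 0.563) and 2.55 ± 0.91 in saline muscle at 24 h (adjusted p = 0.115). It was 1.42 ± 0.53 in dex muscle at 3 h (adjusted p = 0.166) and −0.57 ± 0.65 in saline muscle at 3 h (adjusted p = 0.802). Other settings called Nr4a3. In dex muscle at 3 h it passed in limma-voom with sample weights (1.89, adjusted p = 0.0363) and without WT dex 3 h library 2 (2.17, adjusted p = 0.023). In saline muscle at 24 h it passed in DESeq2 (2.60, adjusted p = 0.0266), while without KO saline 24 h library 1 it was 0.85, in a range of 0.85 to 3.05. In dex muscle at 3 h 4 of the 5 WT libraries lay below all 5 KO libraries, and the second WT library lay among them. Over the 4 conditions the values of Nr4a1 ran from −0.08 to 0.11, with SE from 0.18 to 0.23, and those of Nr4a2 from 0.05 to 0.33.

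The dex effect did not differ between genotypes at an adjusted p of 0.05 for any member or any other gene in the edgeR fit. For Nr4a3 the difference, KO minus WT, was 1.99 ± 0.84 at 3 h (95% interval 0.33 to 3.64, unadjusted p = 0.025, adjusted p = 0.999) and −1.76 ± 1.13 at 24 h (adjusted p = 0.781). The 24 h value was −0.057 without KO saline 24 h library 1 and ran from −2.27 to −0.057 over refits without 1 library. Thus the call of Nr4a3 in WT at 3 h and its absence in KO do not show a difference between genotypes. For Nr4a1 it was 0.14 ± 0.29 at 3 h and 0.19 ± 0.28 at 24 h. At an unadjusted p under 0.05, 460 genes passed in this interaction at 3 h and 858 at 24 h, and 532 in the saline time interaction. With no true difference, about 5% of the 13955 genes tested would pass. The counts at 3 h and in the saline time interaction are below that share, and the count at 24 h is above it.

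The authors' deposited tables give their own dex against saline values in each genotype and time, and for these genes they differed from a comparison with saline of the same time. At 3 h the authors' deposited tables give Nr4a1 a log2 fold change of 1.1 in KO (adjusted p = 1.05e-05) and 0.951 in WT (adjusted p = 5.7e-05). At 24 h the authors' deposited tables give it −1.03 in KO (adjusted p = 7.01e-05) and −1.17 in WT (adjusted p = 9.44e-06). The values of the same-time comparison were 0.57, 0.42, −0.49 and −0.68 in that order.

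The edgeR fit was therefore repeated with the mean of saline at both times as the control, after the deposited values were seen. Of all genes tested it called 23% in KO and 18.9% in WT at 3 h, and 23.9% in KO and 16.1% in WT at 24 h. For Nr4a1 this gave 1.07 and 0.93 in KO and WT at 3 h and −0.99 and −1.18 in KO and WT at 24 h. For Nr4a3 it gave 1.15 and 0.72 at 3 h and −1.76 and −1.56 at 24 h, where the authors' deposited tables give 1.54 (adjusted p = 0.0488), 0.676, −1.43 and −1.57. The same-time values for Nr4a3 were −0.42, −2.40, −0.20 and 1.57, so in 3 of the 4 strata the sign differed from the authors' deposited tables. Over 12882 genes the median absolute difference from the authors' deposited tables was 0.064 to 0.0797 with saline of the same time and 0.00597 to 0.0193 with saline of both times. Between 80.8% and 93.7% of genes were closer with saline of both times. The labels do not state how the authors coded their control.

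**Figure D5:**
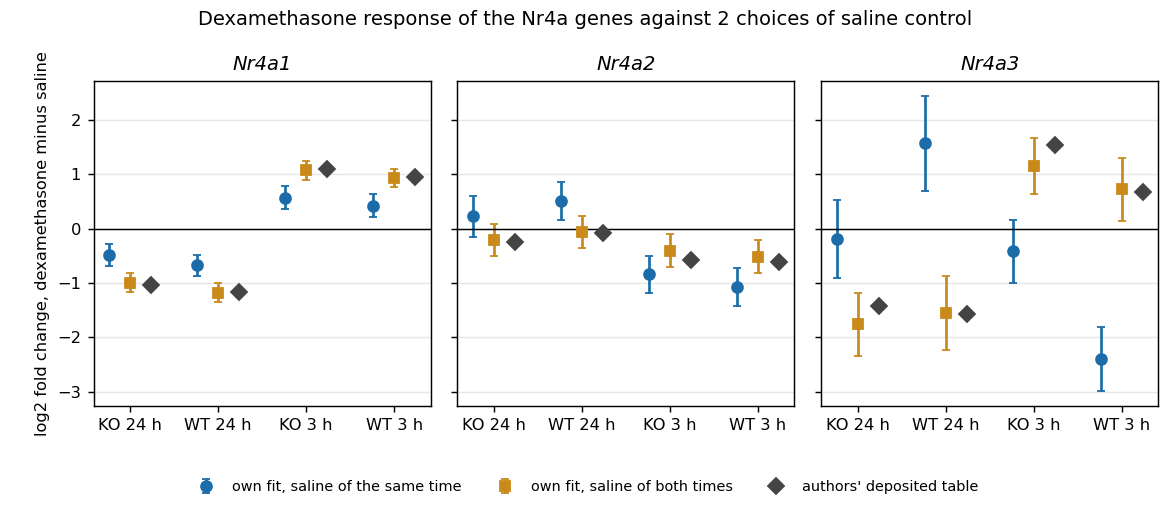
Log2 fold change of dex against saline (y axis) for each Nr4a gene in 4 strata, from the edgeR fit with saline of the same time (circles, bars are SE), from the fit with saline of both times (squares, bars are SE) and from the authors' deposited tables (diamonds). The diamonds lie near the squares, and for Nr4a3 in WT at 3 h the circle is at −2.40 while the square is at 0.72.

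Ordered by mean level, Nr4a1 ran from KO dex 3 h (423 ± 54.3 CPM) through WT dex 3 h (404 ± 54.4), WT saline 3 h (301 ± 83.1) and KO saline 3 h (286 ± 19.8) to WT saline 24 h (149 ± 27.0), KO saline 24 h (142 ± 47.2), KO dex 24 h (101 ± 31.9) and WT dex 24 h (93.6 ± 12.8, all SD). Among neighbours in that order, ranges were separate only between KO saline 3 h and WT saline 24 h. Nr4a3 ran from WT saline 3 h (49.9 ± 39.8 CPM) through KO saline 3 h (33.7 ± 15.8), KO dex 3 h (25.2 ± 9.47), WT dex 3 h (9.43 ± 8.66), KO saline 24 h (3.87 ± 4.64), KO dex 24 h (3.25 ± 1.67) and WT dex 24 h (1.92 ± 1.5) to WT saline 24 h (0.642 ± 0.209). Nr4a2 was highest in KO and WT saline at 3 h (2.38 ± 0.97 and 2.28 ± 0.34 CPM), and the other 6 groups lay between 1.05 and 1.5 CPM. For Nr4a2 and Nr4a3 the ranges of all neighbouring groups overlapped.

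Over the 33 libraries the log2 CPM of Nr4a1 and Nr4a3 had a Pearson r of 0.71, which was 0.31 after the group means were taken out. For Nr4a2 the values were 0.36 with Nr4a3 (0.22 within groups) and −0.01 with Nr4a1 (0.13 within groups). These describe libraries that share groups and scaling. By the same measure the gene most like Nr4a1 was Gpr56, an adhesion G protein-coupled receptor (r = 0.96). For Nr4a2 it was Eogt, a glycosyltransferase (0.80). Those most like Nr4a3 were Ppargc1a (0.82) and Gpr157 (0.79), a G protein-coupled receptor.

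Gpr56 averaged 22.2 ± 5.30 CPM in KO and 24.2 ± 2.46 CPM in WT dex muscle at 24 h, against 30.9 ± 5.20 CPM and 31.6 ± 4.04 CPM in KO and WT saline muscle. At 3 h it averaged 55.5 ± 9.10 CPM in KO and 56.1 ± 6.39 CPM in WT dex muscle, against 41.5 ± 0.68 CPM and 40.2 ± 2.84 CPM in KO and WT saline muscle (all SD). Its groups therefore stood in a similar order to those of Nr4a1, high in dex at 3 h and low in dex at 24 h. Gpr56 was picked by its correlation with Nr4a1 over the same libraries, so this likeness is no separate evidence. In saline muscle at 24 h against 3 h its log2 fold change was −0.39 ± 0.12 and did not pass the threshold (adjusted p = 0.063).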

How the data were processed

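RNA sequencing counts of 33 quadriceps libraries were used. The deposited files hold the authors' raw read counts per gene symbol, and 2 lines per file that are no genes were left out (reads in no feature, 24.6% to 33.2%, and ambiguous reads, 0.188% to 0.3%). Per the submitters' processing notes the tools were STAR, HTSeq and limma 3.40.6 with mm10. The role of each is not given in the sources used here, nor are the annotation and strand setting. The authors' deposited comparison tables give log2 fold changes, p-values with adjusted p-values, and a t and B score per gene, per the file headers. Only their log2 and adjusted p columns were printed.

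Genes were filtered with filterByExpr and scaled by TMM in edgeR 4.0.16 (R 4.3.3). The model held the 8 group means, and contrasts were tested with the quasi-likelihood F test and Benjamini-Hochberg adjustment over 13955 genes at 0.05. SE is the log2 fold change divided by the square root of F. CPM used TMM-scaled totals, and RPKM used merged exon lengths of GENCODE vM21. Within groups, 55 library pairs were compared and none was a repeat of another (chi-square per degree of freedom at least 11.5). The fit was tried on simulated data with known changes, where 7.94% of the calls were false, above the threshold of 0.05. Every simulated gene had the same spread, so the trial does not show how the fit does for a gene as variable as Nr4a3. Alternatives were other scaling, no filter, the groups compared alone, limma-voom with sample weights (limma 3.58.1), DESeq2 1.42.0, the library name series, and each library left out. Libraries are numbered in listed order.

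Named genes are the 3 members, the genes most like each by Pearson r, and the 4 with the smallest p in each list that is not of markers, with fewer printed where that order was kept. Some genes that this rule names are not reported here. The members and lists were chosen with earlier results of these data known.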

Additional observations from a re-analysis of the deposited data

Results flagged for a closer look

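Nr4a3 in WT dex muscle at 3 h had 1 library far from the others, library 2 at 24.7 CPM, while the other 4 libraries lay between 3.83 and 7.62 CPM. Its gap to the next library was 0.818 of the group's range, above the limit of 0.71 for 5 libraries. It was the only one that passed among 15 sets of values, the groups of 4 or 5 libraries read for each of the 3 genes. Sets of different genes share their libraries, and chance flags about 1 in 20 sets. The dex effect differed between 24 h and 3 h by an interaction test for each member, by −1.08 on the log2 scale for Nr4a1, 1.32 for Nr4a2 and 2.09 for Nr4a3.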

How the results depend on the processing

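No paired analysis was possible because the samples carry no replicate numbers in their labels. Over both genotypes, the saline falls of Nr4a1 and Nr4a3 kept their direction and their call in all 9 other settings and in all 13 refits without 1 library. The Nr4a2 fall lost its call with library totals alone (−0.96) and ran from −1.08 to −0.80 without 1 library. It also lost its call without the 2 saline libraries picked by their Nr4a3 values (−1.02, a setting added later). For KO at 3 h, Nr4a1 after dex passed the threshold with the name series as a covariate (0.62), in the libraries with names in ML1715 alone (0.62), in the compared groups alone (0.57), in limma-voom with sample weights (0.58) and in DESeq2 (0.57), and Nr4a2 passed in the weighted limma-voom fit (−0.93). For KO at 24 h, the uncalled Nr4a3 value changed sign in the ML1715 libraries (0.14) and in weighted limma-voom (0.87). The Nr4a3 interaction of dex with time was uncalled in the ML1715 libraries (1.82) and in weighted limma-voom (2.42). The genotype difference in the saline fall of Nr4a1, near 0, was −0.058 with the name series as a covariate, −0.11 in the ML1715 libraries and −0.13 in weighted limma-voom. The 5 libraries whose names start with ML1716 left the ML1715 fits without any of them, and no value could be had within ML1716. With 1 library left out, dex minus saline ran from −0.74 to −0.33 for Nr4a1 in KO at 24 h, −0.78 to −0.58 for Nr4a1 in WT at 24 h, −1.25 to −0.46 for Nr4a2 in KO at 3 h, −1.34 to −0.91 for Nr4a2 in WT at 3 h, −0.70 to 1.51 for Nr4a3 in KO at 24 h and −3.15 to −1.76 for Nr4a3 in WT at 3 h. The Nr4a3 interaction of dex with time ran from 1.77 to 2.95. The uncalled genotype values also changed sign for some left-out libraries. In saline at 3 h KO minus WT ran from −0.29 to 0.089 for Nr4a1, −0.32 to 0.24 for Nr4a2 and −1.08 to 0.075 for Nr4a3. In saline at 24 h it ran from −0.23 to 0.18 for Nr4a1. In dex it ran from −0.11 to 0.57 for Nr4a2 at 3 h, and at 24 h from −0.066 to 0.22 for Nr4a1 and −0.14 to 0.20 for Nr4a2. The genotype difference of the dex effect ran from −0.022 to 0.35 for Nr4a1 and −0.18 to 0.62 for Nr4a2 at 3 h, and from −0.068 to 0.34 for Nr4a1 at 24 h. That of the saline fall ran from −0.16 to 0.26 for Nr4a1. The cause of these changes was not tested. The count of genes called in saline 24 h against 3 h was 344, against 1066 in limma-voom with sample weights, 584 in DESeq2 and 528 with the compared groups alone. It was 64 without the 2 saline libraries picked by their Nr4a3 values and 128 to 516 without 1 library. With Spearman's rho, 2 of the 5 genes most like Nr4a1 were kept, and 3 of 5 for Nr4a2 and Nr4a3. The 18 to 111 counts of Nr4a2 limit what can be read from it.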
